A study of Homo sapiens with 18 samples.

Results

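The FOXO genes FOXO1, FOXO3 and FOXO4 and 7 genes long known as FOXO targets (KLHL24, FBXO32, CCNG2, PIK3IP1, PDK4, TXNIP and BCL6) were followed through a 3-line experiment with TRI-611, which the series title describes as a molecular glue degrader of the receptor tyrosine kinase ALK. The 10 genes were taken by name from a table of 57500 genes, and each name matched 1 gene. The measurements were poly-A RNA-seq levels in TPM (a gene's share of the library's transcripts, corrected for gene length) from 3 human lung cancer cell lines of the non-small cell type, each known to carry an EML4-ALK fusion. The 6 groups, each of 3 libraries, were SNU2535 cells given 3 µM TRI-611 for 3 h and SNU2535 cells given DMSO, and the same pair of groups for NCI-H3122 and for NCI-H2228. The labels call the genotype of all lines WT, and all cells were grown in the same medium, so the treated cells differ from the DMSO cells in the agent alone as far as the labels say.

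FOXO factors are forkhead transcription factors that bind DNA elements of the type GTAAACA. AKT, which acts downstream of receptor tyrosine kinases through PI3K, phosphorylates them, and 14-3-3 proteins then hold them outside the nucleus; when AKT activity drops they enter the nucleus and switch on genes for cell cycle arrest, protein breakdown, fuel choice and cell death. Their activity is thus set largely on the protein, which RNA-seq does not measure, while their own transcripts and those of their targets can be read here.

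Promoter windows are shown first, because the members are FOXO genes and genes listed as FOXO targets. RefSeq (GRCh38.p14) gave windows of 300 bases, 250 before to 50 after an annotated start, for 9 of the 10 genes (all but FBXO32), 15 windows in all. Each window was searched on both strands for GTAAACA, the core forkhead element, and for CAAAACA, a second FOXO-type element that ends in the same letters AAACA. Windows of 3 members (TXNIP, PIK3IP1 and FOXO4) held GTAAACA, and a window of 1 member (KLHL24) held CAAAACA. Of all 35116 RefSeq windows of this length, 3.42% hold GTAAACA and 4.92% hold CAAAACA; counted by gene, as for the members, 4.19% and 6.05% of 27305 genes have a window with them. The 4 windows follow on the strand of the gene, 5′ to 3′, with the element in capitals; in PIK3IP1 and KLHL24 the capitals are the element read from the other strand.
TXNIP, chr1:145996530-145996829, minus strand: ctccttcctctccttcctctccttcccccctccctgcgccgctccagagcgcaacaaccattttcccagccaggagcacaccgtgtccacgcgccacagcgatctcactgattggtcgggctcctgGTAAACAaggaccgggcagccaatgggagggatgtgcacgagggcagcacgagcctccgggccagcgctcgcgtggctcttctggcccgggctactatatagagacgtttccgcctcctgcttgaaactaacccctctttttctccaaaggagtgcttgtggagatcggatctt
PIK3IP1, chr22:31292439-31292738, minus strand: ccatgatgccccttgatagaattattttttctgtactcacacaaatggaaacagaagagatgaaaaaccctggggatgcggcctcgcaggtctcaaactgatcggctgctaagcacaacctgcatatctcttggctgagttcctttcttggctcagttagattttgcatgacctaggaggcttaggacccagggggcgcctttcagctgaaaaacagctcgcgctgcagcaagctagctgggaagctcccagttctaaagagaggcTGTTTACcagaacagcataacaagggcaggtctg
KLHL24, chr3:183635373-183635672, plus strand: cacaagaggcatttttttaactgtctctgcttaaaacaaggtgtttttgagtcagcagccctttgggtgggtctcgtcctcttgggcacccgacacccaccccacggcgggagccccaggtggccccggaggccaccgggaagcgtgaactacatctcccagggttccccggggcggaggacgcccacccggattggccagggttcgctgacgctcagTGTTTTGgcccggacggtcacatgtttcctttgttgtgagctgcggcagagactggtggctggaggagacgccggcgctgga
FOXO4, chrX:71095601-71095900, plus strand: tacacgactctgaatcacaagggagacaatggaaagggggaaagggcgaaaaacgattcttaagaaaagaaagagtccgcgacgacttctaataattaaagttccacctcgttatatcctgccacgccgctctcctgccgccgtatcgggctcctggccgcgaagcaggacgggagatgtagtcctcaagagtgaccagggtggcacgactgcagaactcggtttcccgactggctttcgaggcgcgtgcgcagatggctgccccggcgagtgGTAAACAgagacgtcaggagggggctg
Counted from the annotated start, the element begins at -124 in the TXNIP window and at -32 in the KLHL24 window. In PIK3IP1 and FOXO4 it lies just after the start, and the RefSeq start of the FOXO4 window lies upstream of the GENCODE gene span given below. A match describes these letters and shows no binding, and windows without a match say nothing about FOXO at those genes.

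Facts of the whole set bear on all that follows. Each library had 23766 to 25921 genes above 0, and TPM keeps no read totals, so the depth is unknown and no interval for counting error is given. Mitochondrially encoded genes took 7.59% to 15.0% of TPM. All 6 epithelial markers lay above 1 TPM in all groups, and their summed level was 8331 to 8652 TPM in TRI-611 libraries and 9106 to 9477 TPM in DMSO libraries of SNU2535, with the same order in the other lines. The 6 did not all go one way. In limma, 2 were called higher and 3 lower in SNU2535, 1 higher and 3 lower in NCI-H3122, and 0 higher and 2 lower in NCI-H2228. The shares of all tested genes called are given below. The lung lineage gene NKX2-1 averaged 259 TPM in TRI-611 and 125 TPM in DMSO libraries of NCI-H3122, where the other 2 lung lineage markers lay under 1 TPM. Of 9 markers of immune cells, endothelium and fibroblasts, 2 to 4 reached a mean of 1 TPM in a group, led in every group by COL1A1. COL1A1 averaged 151 TPM with TRI-611 and 135 TPM with DMSO in SNU2535. Its means were 13.2 and 12.3 TPM in NCI-H3122, and 368 and 380 TPM in NCI-H2228. DCN was at 0 in both SNU2535 groups. Whether these shifts have a part in the members' changes was not tested. The ALK transcript was not called in any line (limma log2 change -0.21, adjusted p = 0.0518 in SNU2535; -0.09 in NCI-H3122; -0.02 in NCI-H2228), which does not check the agent, since a degrader acts on the protein.

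Within each line the question was how the FOXO genes and their targets stood 3 h after TRI-611. KLHL24, FBXO32, CCNG2 and PIK3IP1 rose in all 3 lines, by 2.08-fold to 8.69-fold as ratios of group means. PDK4, near 1 TPM in DMSO cells, rose too, and the transcripts of FOXO1, FOXO3 and FOXO4 and of TXNIP rose by smaller amounts. BCL6 passed the test in no line. A member was called when limma on log2(TPM + 1), run over all genes with 1 TPM or more in at least 3 of the line's 6 libraries, gave a Benjamini-Hochberg adjusted p under 0.05. In each line 9 of the 10 members were called higher and 0 lower, where 10.7% of all tested genes were called higher and 18.1% lower in SNU2535, 20.6% higher and 13.4% lower in NCI-H3122, and 4.8% higher and 6.4% lower in NCI-H2228. All 10 passed the filter on low values, but PDK4 did so in SNU2535 through its TRI-611 libraries alone, with 0 of 3 DMSO libraries at 1 TPM. For PDK4, 1 of 3 DMSO libraries reached 1 TPM in NCI-H2228 and 2 of 3 in NCI-H3122. For PIK3IP1 it was 2 of 3 in NCI-H3122. The count is therefore a description. In bulk RNA, a change in the number of cells that express a gene and a change in RNA per cell cannot be told apart, and TPM gives shares of a library. Nothing in the labels says whether a group's libraries are separate cultures, so p-values measure the spread between libraries, which may be technical.

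**Figure D1:**
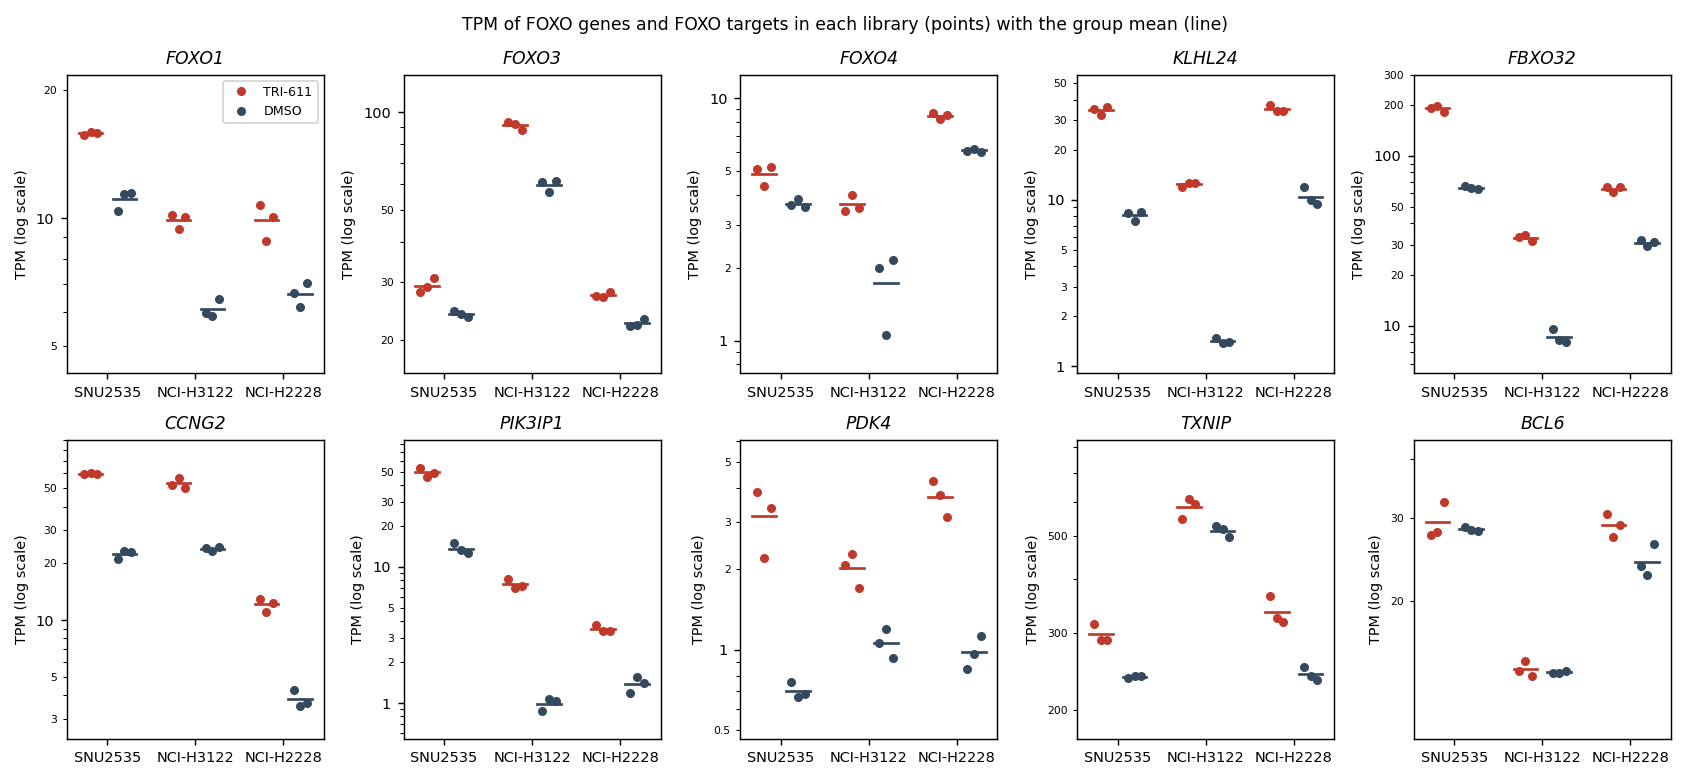
TPM of each of the 10 members (1 panel each, vertical axis on a log scale) in every library of the 3 lines, with TRI-611 libraries left of DMSO libraries and the group mean as a bar. The TRI-611 libraries lie above all DMSO libraries of the same line for every member except BCL6 in SNU2535 and NCI-H3122. For PDK4 in SNU2535 the filter itself fixed this. Groups without overlap, in either direction, were found for 43.9%, 48.1% and 31.4% of all tested genes in SNU2535, NCI-H3122 and NCI-H2228.

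FOXO1 encodes the factor best known for insulin-dependent control of gluconeogenic genes, and it spans chr13:40469953-40666597 (GRCh38, GENCODE release 29, as for all genes below). Its libraries held 15.7, 15.9 and 15.8 TPM with TRI-611 against 10.4, 11.4 and 11.5 TPM with DMSO in SNU2535. They held 10.2, 9.43 and 10.0 TPM with TRI-611 against 5.98, 5.89 and 6.44 TPM with DMSO in NCI-H3122, and 10.8, 8.82 and 10.0 TPM with TRI-611 against 6.67, 6.17 and 7.05 TPM with DMSO in NCI-H2228. The groups did not overlap in any line, and the TRI-611 libraries of SNU2535 were the most alike. Of all tested genes, 43.9% in SNU2535, 48.1% in NCI-H3122 and 31.4% in NCI-H2228 also had groups that did not overlap, in either direction. Remarks on overlap for the genes below stand beside these shares. The log2 changes were 0.48 ± 0.0580 (SE, adjusted p = 0.000715) in SNU2535, 0.62 ± 0.0686 (adjusted p = 0.000409) in NCI-H3122 and 0.51 ± 0.0907 (adjusted p = 0.00929) in NCI-H2228 (limma, n = 3 each).

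FOXO3, at chr6:108559835-108684774, encodes the factor tied to stress resistance and cell death genes. In NCI-H3122, the line with most FOXO3, it had 93.4, 92.0 and 88.4 TPM with TRI-611 against 61.0, 56.9 and 61.5 TPM with DMSO. In SNU2535 it had 27.9, 29.1 and 31.0 TPM with TRI-611 against 24.6, 24.0 and 23.5 TPM with DMSO, and in NCI-H2228 it had 27.2, 27.0 and 28.0 TPM with TRI-611 against 22.0, 22.2 and 23.2 TPM with DMSO. The groups did not overlap in any line, and the gap was widest in NCI-H3122. The limma log2 change was 0.60 ± 0.0441 (SE, adjusted p = 5.27e-05) in NCI-H3122, beside 0.28 ± 0.0512 (adjusted p = 0.00543) in SNU2535 and 0.27 ± 0.0478 (adjusted p = 0.00845) in NCI-H2228. Reads of the near-identical copy FOXO3B, listed at group means of 0.532 to 2.20 TPM, could be shared with FOXO3, whose group means were 22.5 to 91.2 TPM.

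FOXO4, at chrX:71096197-71103535, encodes a further factor of the same family and had the lowest mean of the 3 in all 6 groups. With TRI-611 it had 8.68, 8.24 and 8.52 TPM against 6.05, 6.21 and 6.03 TPM with DMSO in NCI-H2228, its highest line. It had 3.43, 4.01 and 3.54 TPM with TRI-611 against 2.00, 1.06 and 2.15 TPM with DMSO in NCI-H3122, and 5.12, 4.35 and 5.22 TPM with TRI-611 against 3.64, 3.84 and 3.55 TPM with DMSO in SNU2535. No group overlapped its counterpart, though the second library of each treated SNU2535 and DMSO NCI-H3122 group lay low. The log2 changes were 0.42 ± 0.0710 (SE, adjusted p = 0.00753) in NCI-H2228, 0.79 ± 0.175 (adjusted p = 0.0103) in NCI-H3122 and 0.33 ± 0.0971 (adjusted p = 0.0375) in SNU2535 (limma, n = 3 each). The SNU2535 call was not held by the fit with the batch number as a block (adjusted p = 0.0794), with no filter (0.0737) or in 1 fit of all 18 libraries (0.0551). It was also lost without DMSO library 1, 2 or 3 (adjusted p = 0.0936, 0.0649 and 0.104) and without TRI-611 library 1 or 3 (0.102 and 0.121).

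Summed over the 3 genes, FOXO transcripts came to 50.03 ± 1.75 TPM with TRI-611 and 38.8 ± 0.343 TPM with DMSO in SNU2535 (SD, n = 3 each), to 105 ± 2.58 TPM and 67.7 ± 3.32 TPM in NCI-H3122, and to 45.8 ± 1.43 TPM and 35.2 ± 0.923 TPM in NCI-H2228. FOXO3 made up most of this sum in all groups, with 87.1% of it in TRI-611 and 88.4% in DMSO libraries of NCI-H3122. Its share was 58.6% with TRI-611 and 62.0% with DMSO in SNU2535, and 59.9% with TRI-611 and 63.8% with DMSO in NCI-H2228. FOXO4 gave 18.5% of the sum with TRI-611 and 17.3% with DMSO in NCI-H2228, its largest share, and 3.49% with TRI-611 and 2.54% with DMSO in NCI-H3122, its smallest.

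**Figure D2:**
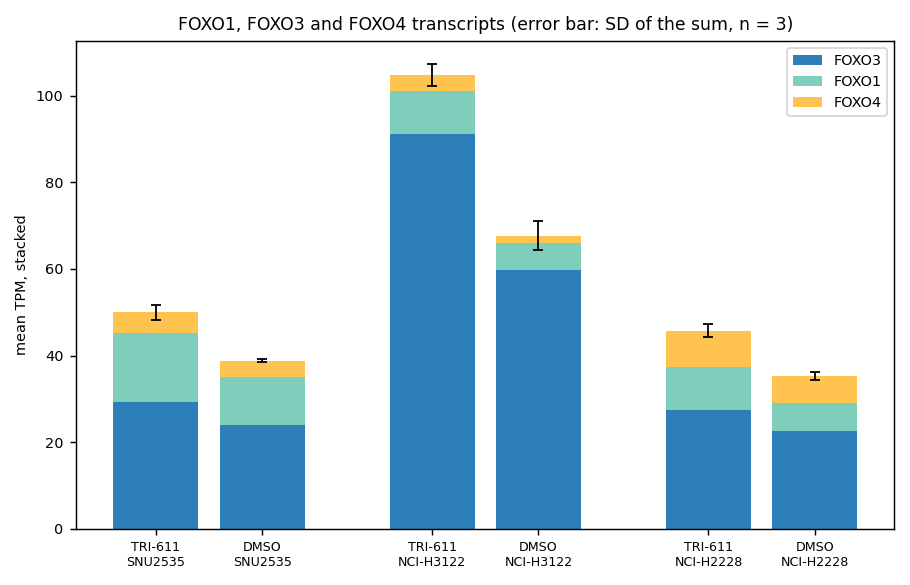
Mean TPM of FOXO1, FOXO3 and FOXO4 stacked for each group of 3 libraries (vertical axis from 0, TRI-611 left of DMSO in each line), with the SD of the summed TPM over the 3 libraries as error bars. The sum reached 105 TPM with TRI-611 and 67.7 TPM with DMSO in NCI-H3122, most of it FOXO3.

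KLHL24 and FBXO32 both serve protein breakdown. KLHL24, at chr3:183635568-183684477, is a Kelch-type adaptor of a cullin ubiquitin ligase known for acting on keratins in skin. Its libraries had 35.1, 32.1 and 36.2 TPM with TRI-611 against 8.37, 7.51 and 8.44 TPM with DMSO in SNU2535. They had 36.9, 34.3 and 34.1 TPM with TRI-611 against 12.0, 9.96 and 9.45 TPM with DMSO in NCI-H2228. In NCI-H3122 the values were 11.9, 12.6 and 12.7 TPM with TRI-611 against 1.49, 1.39 and 1.41 TPM with DMSO. The lowest TRI-611 library lay far above the highest DMSO library in each line, and the treated NCI-H3122 libraries reached about the DMSO level of NCI-H2228. Ratios of means were 4.25 in SNU2535, 8.69 in NCI-H3122 and 3.36 in NCI-H2228. The log2 changes were 1.96 ± 0.0674 (SE, adjusted p = 2.00e-06), 2.47 ± 0.0782 (adjusted p = 1.22e-06) and 1.66 ± 0.0846 (adjusted p = 1.91e-05) in that order (limma), and by size of change KLHL24 ranked 3 of 16252, 2 of 15311 and 11 of 16806 tested genes from the top.

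FBXO32 encodes the F-box protein atrogin-1, the substrate-binding part of a ubiquitin ligase that rises in wasting muscle. It had 192, 197 and 181 TPM with TRI-611 against 66.7, 64.7 and 63.7 TPM with DMSO in SNU2535. It had 33.3, 34.2 and 31.4 TPM with TRI-611 against 9.56, 8.29 and 8.00 TPM with DMSO in NCI-H3122, and 65.3, 61.1 and 65.8 TPM with TRI-611 against 32.1, 29.3 and 31.0 TPM with DMSO in NCI-H2228. The groups were far apart in each line, and SNU2535 had the highest level under either condition. The ratios of means were 2.92 in SNU2535, 3.83 in NCI-H3122 and 2.08 in NCI-H2228. The limma log2 changes were 1.53 ± 0.0417 (SE, adjusted p = 9.24e-07) in SNU2535, 1.82 ± 0.0726 (adjusted p = 3.35e-06) in NCI-H3122 and 1.03 ± 0.0515 (adjusted p = 1.71e-05) in NCI-H2228.

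CCNG2, at chr4:77157151-77433388, encodes cyclin G2, an atypical cyclin associated with cell cycle arrest rather than with division. It had 59.3, 60.4 and 59.7 TPM with TRI-611 against 21.2, 23.1 and 22.9 TPM with DMSO in SNU2535. It had 52.1, 57.1 and 50.02 TPM with TRI-611 against 24.2, 23.4 and 24.4 TPM with DMSO in NCI-H3122, and 13.0, 11.0 and 12.3 TPM with TRI-611 against 4.28, 3.52 and 3.64 TPM with DMSO in NCI-H2228. No library of one group came near the other group, and NCI-H2228 was the low line. CCNG2 rose by 1.38 ± 0.0458 in SNU2535 (log2, SE, adjusted p = 1.89e-06), by 1.11 ± 0.0558 in NCI-H3122 (adjusted p = 9.20e-06) and by 1.45 ± 0.0959 in NCI-H2228 (adjusted p = 6.63e-05) in limma.

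PIK3IP1, at chr22:31281593-31292534, encodes a membrane protein that binds the catalytic subunit of PI3K and restrains it. It had 53.8, 45.6 and 48.9 TPM with TRI-611 against 15.0, 13.3 and 12.6 TPM with DMSO in SNU2535. It had 8.14, 7.06 and 7.31 TPM with TRI-611 against 0.875, 1.08 and 1.03 TPM with DMSO in NCI-H3122, and 3.75, 3.41 and 3.41 TPM with TRI-611 against 1.20, 1.54 and 1.41 TPM with DMSO in NCI-H2228. The groups did not overlap, and the ratios of means were 3.62 in SNU2535, 7.55 in NCI-H3122 and 2.55 in NCI-H2228. The limma log2 changes were 1.78 ± 0.0801 (SE, adjusted p = 6.73e-06) in SNU2535, 2.09 ± 0.103 (adjusted p = 8.77e-06) in NCI-H3122 and 0.93 ± 0.129 (adjusted p = 0.00297) in NCI-H2228. An antisense gene, PIK3IP1-AS1, overlaps PIK3IP1 and averaged at most 0.523 TPM in a group. LINC00598 overlaps FOXO1 on the same strand (at most 0.0434 TPM), and AC072022.1 overlaps BCL6 on the opposite strand (at most 0.324 TPM). AC092674.1 overlaps CCNG2 on the opposite strand (at most 0.0842 TPM). Also on the opposite strand, AC072022.2 overlaps BCL6, and pseudogenes overlap FOXO1, FOXO3 and CCNG2, with levels not given here. With no strand setting given, reads of genes that overlap on opposite strands cannot be told apart. For FOXO1 and LINC00598 a strand setting would not separate them.

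PDK4 and TXNIP act on fuel use. PDK4, at chr7:95583499-95596491, encodes a kinase that shuts pyruvate dehydrogenase and so spares glucose. It had 3.87, 2.20 and 3.37 TPM with TRI-611 against 0.755, 0.664 and 0.684 TPM with DMSO in SNU2535. It had 4.24, 3.77 and 3.11 TPM with TRI-611 against 0.845, 0.960 and 1.12 TPM with DMSO in NCI-H2228, and 2.07, 2.28 and 1.69 TPM with TRI-611 against 1.06, 1.20 and 0.929 TPM with DMSO in NCI-H3122. All libraries were near the lower limit of the filter. The groups did not overlap in any line, but in SNU2535 the filter itself fixed this. The limma log2 changes were 1.25 ± 0.150 (SE, adjusted p = 0.00139) in NCI-H2228 and 0.55 ± 0.145 (adjusted p = 0.0227) in NCI-H3122. Only 1 of 3 DMSO libraries in NCI-H2228 and 2 of 3 in NCI-H3122 reached 1 TPM. PDK4 thus passed the filter there with the help of its TRI-611 libraries, and both values are to be read as descriptions. In SNU2535, where PDK4 passed the filter through its TRI-611 libraries alone and so had to differ, the log2 change of 1.26 ± 0.184 is a description and its p is left out. The NCI-H3122 call was lost under quantile normalization (adjusted p = 0.0607) and without DMSO library 1 (0.0542) or 3 (0.0661) or TRI-611 library 1 (0.0580) or 2 (0.0752).

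TXNIP, at chr1:145992435-145996600, encodes an arrestin-family protein that binds thioredoxin and limits glucose uptake, and it was the most abundant member in every group. It had 365, 324 and 318 TPM with TRI-611 against 251, 239 and 234 TPM with DMSO in NCI-H2228. It had 315, 289 and 290 TPM with TRI-611 against 237, 239 and 239 TPM with DMSO in SNU2535, and 550, 611 and 593 TPM with TRI-611 against 529, 519 and 497 TPM with DMSO in NCI-H3122. The groups did not overlap, but in NCI-H3122 the first TRI-611 library lay close to the DMSO libraries. Its limma log2 changes were 0.47 ± 0.0549 (SE, adjusted p = 0.00118) in NCI-H2228, 0.32 ± 0.0398 (adjusted p = 0.000838) in SNU2535 and 0.18 ± 0.0462 (adjusted p = 0.0194) in NCI-H3122. The NCI-H3122 call was lost under median-ratio scaling (adjusted p = 0.0733), with no filter (0.0530) and with plain empirical Bayes (0.0627). It was also lost without DMSO library 2 (0.0551) or 3 (0.0742) or without TRI-611 library 2 (0.0591).

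BCL6, at chr3:187721377-187745727, encodes a transcriptional repressor best known in germinal centre B cells. It had 27.6, 28.0 and 32.4 TPM with TRI-611 against 28.8, 28.2 and 28.1 TPM with DMSO in SNU2535, and 14.2, 14.9 and 13.8 TPM with TRI-611 against 14.0, 14.0 and 14.2 TPM with DMSO in NCI-H3122. These groups overlapped, with log2 differences of 0.04 (95% interval -0.11 to 0.19, adjusted p = 0.663) and 0.02 (95% interval -0.10 to 0.14, adjusted p = 0.796) in limma. In NCI-H2228 it had 30.5, 27.4 and 29.03 TPM with TRI-611 against 23.7, 22.7 and 26.4 TPM with DMSO. Here the groups did not overlap, and the log2 difference of 0.25 (95% interval 0.09 to 0.41) had an adjusted p of 0.0516 (limma). It passed the threshold when mitochondrially encoded genes were left out (adjusted p = 0.0282), under median-ratio scaling (0.0356) and quantile normalization (0.0265), with a pseudocount of 0.1 (0.04996), in 1 fit of all 18 libraries (0.0143) and without DMSO library 3 (0.0239).

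**Figure D3:**
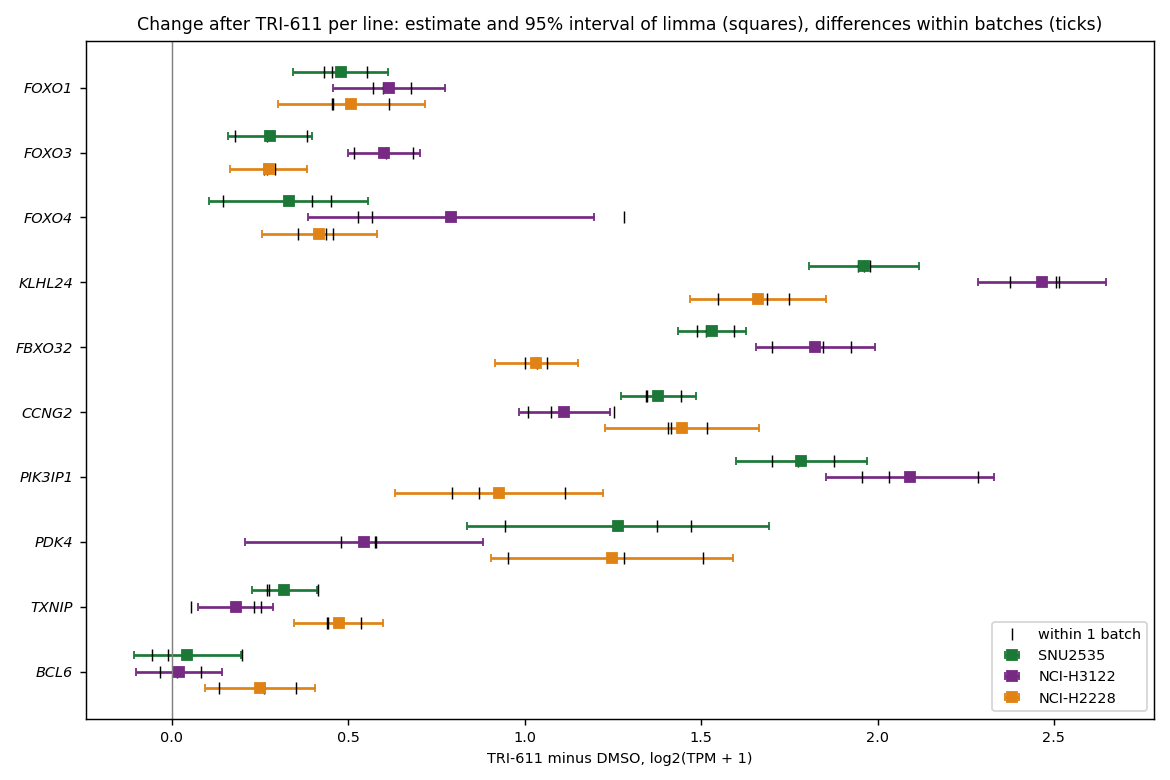
Log2 change of TPM + 1, TRI-611 over DMSO, for the 10 members in the 3 lines (squares, with limma's 95% interval as lines; small ticks are the differences within each batch; 0 marks no change). KLHL24 and PIK3IP1 reach 2.47 and 2.09 in NCI-H3122, and the BCL6 intervals cross 0 in SNU2535 and NCI-H3122.

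Against all tested genes the members lay on the upper side. The members were chosen with earlier results of these data known, so this is a description. The median log2 change over all tested genes was -0.02 in SNU2535, 0.05 in NCI-H3122 and 0.01 in NCI-H2228, and that of the 10 members was 0.87, 0.70 and 0.72 in the same order. FBXO32 ranked 23, 18 and 69 from the top, CCNG2 44, 154 and 24, and PIK3IP1 6, 7 and 108 in SNU2535, NCI-H3122 and NCI-H2228. The split of called genes into higher and lower depends on scaling: it was 1731 and 2941 in SNU2535 (2506 and 2414 after quantile normalization), 3160 and 2054 in NCI-H3122 (2508 and 3162 under median-ratio scaling) and 806 and 1076 in NCI-H2228 (1162 and 908 without mitochondrially encoded genes). The 9 members called in each line kept a positive log2 change under each of these scalings, though TXNIP and PDK4 in NCI-H3122 lost their calls as given above.

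**Figure D4:**
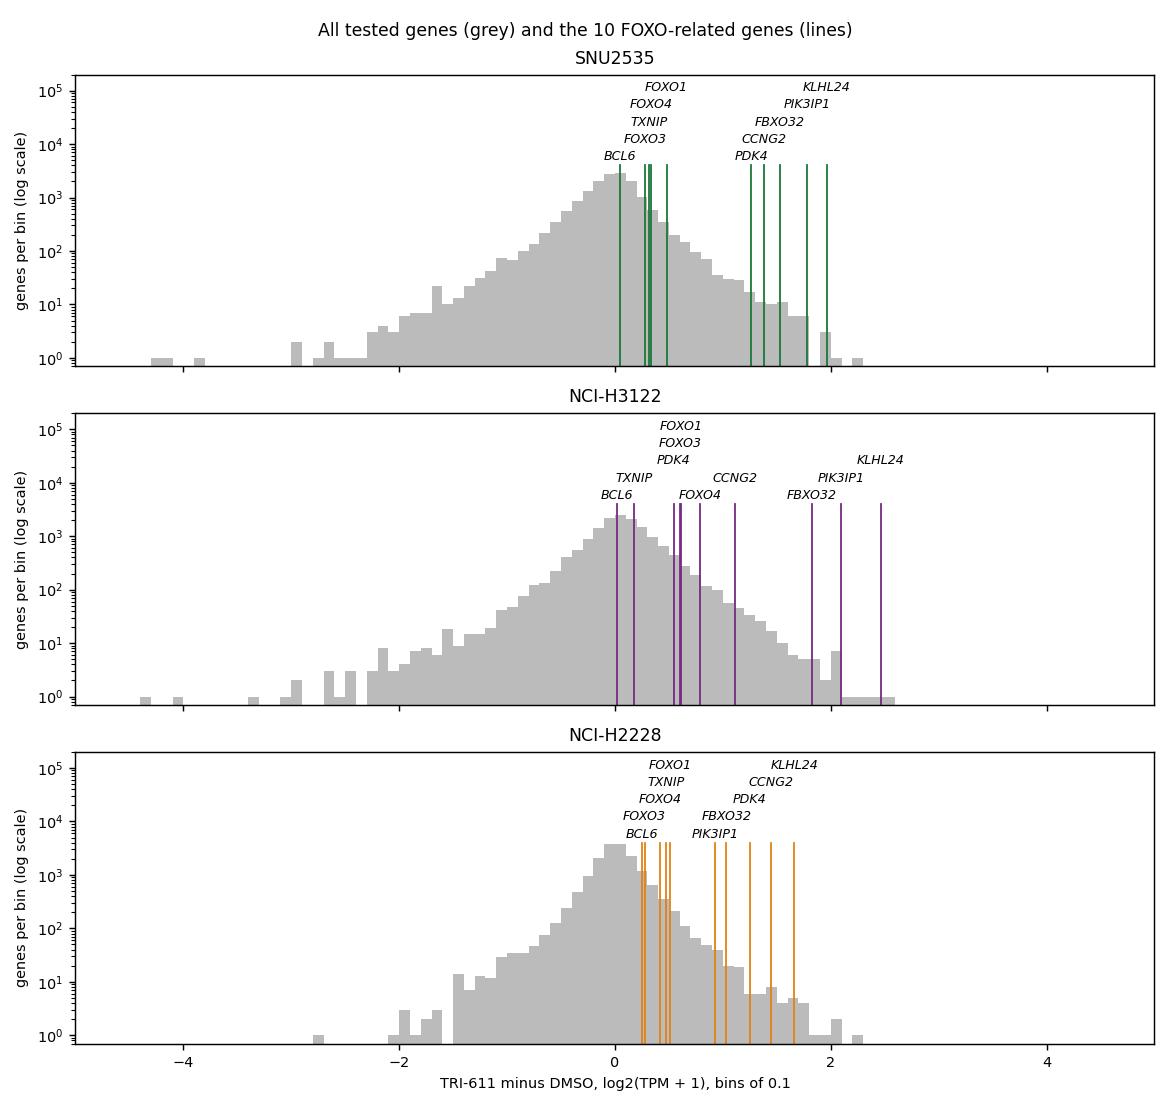
Histogram of log2 changes of TPM + 1, TRI-611 over DMSO, over all tested genes of each line (horizontal axis in log2 units, number of genes on a log axis), with the 10 members marked. KLHL24, at 1.96, 2.47 and 1.66 in SNU2535, NCI-H3122 and NCI-H2228, lies at the far right of each panel. BCL6 lies near 0 in SNU2535 and NCI-H3122 and at 0.25 in NCI-H2228.

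Other genes of the pathway were read from 4 further lists. These lists were also chosen with earlier results of these data known, so their counts and medians are descriptions. For all 4, the shares over all tested genes were 10.7% called higher and 18.1% lower in SNU2535. They were 20.6% higher and 13.4% lower in NCI-H3122, and 4.8% higher and 6.4% lower in NCI-H2228. The median log2 changes over all tested genes were -0.02, 0.05 and 0.01 in the same order. Of 35 other FOXO targets, 28 were tested in SNU2535, where 15 were called higher and 4 lower (median log2 change 0.24). In NCI-H3122, 18 of 27 were called higher and 5 lower (median 0.56), and in NCI-H2228, 12 of 30 were called higher and 1 lower (median 0.22). The gene for the BH3-only death activator BMF rose most of this list in NCI-H3122 and NCI-H2228 and was among the 3 largest changes in SNU2535. It averaged 169 ± 2.72 TPM with TRI-611 and 56.7 ± 3.70 TPM with DMSO in SNU2535 (SD, n = 3 each), 645 ± 25.002 TPM and 175 ± 3.80 TPM in NCI-H3122, and 67.9 ± 1.66 TPM and 19.7 ± 0.304 TPM in NCI-H2228. The limma log2 changes of BMF were 1.56 (adjusted p = 1.68e-06), 1.88 (1.76e-07) and 1.74 (7.87e-07).

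Other FOXO targets did not all go one way. In SNU2535 the death ligand gene TNFSF10 rose by 1.36 (log2, limma adjusted p = 4.68e-05), while KLF2, a transcription factor gene of endothelium and T cells, fell by 1.67 (adjusted p = 2.64e-06), with 20.7 ± 1.24 TPM under TRI-611 and 68.0 ± 4.26 TPM under DMSO. In NCI-H3122 the glucocorticoid-induced leucine zipper gene TSC22D3 rose by 1.54 (adjusted p = 3.21e-05) and the BH3-only gene BBC3 by 1.44 (adjusted p = 1.12e-05). In NCI-H2228 the stress sensor gene SESN3 rose by 0.88 (adjusted p = 0.000585), and CDKN1B, which encodes the cell cycle inhibitor p27, rose by 0.86 (adjusted p = 2.30e-05) with 161 ± 3.19 TPM under TRI-611 and 88.5 ± 4.96 TPM under DMSO.

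Among 26 genes of PI3K and AKT signalling, 9 of 25 tested were called higher and 7 lower in SNU2535, 12 of 23 higher and 3 lower in NCI-H3122, and 4 of 26 higher and 3 lower in NCI-H2228 (median log2 changes 0.01, 0.16 and 0.07). The insulin receptor substrate gene IRS2, which is also on the list of FOXO targets, fell in all 3 lines, with limma log2 changes of -1.21 in SNU2535 (adjusted p = 1.29e-05), -0.98 in NCI-H3122 (adjusted p = 0.000125) and -0.47 in NCI-H2228 (adjusted p = 0.00203). IRS1 changed by -1.497 in SNU2535 (adjusted p = 9.95e-06) and by -0.86 in NCI-H3122 (adjusted p = 0.000176). The catalytic subunit gene PIK3CB rose by 0.80 in SNU2535 (adjusted p = 0.000104), the insulin receptor gene INSR by 0.94 in NCI-H3122 (adjusted p = 0.00238) and the mTORC2 subunit gene RICTOR by 0.58 in NCI-H2228 (adjusted p = 0.00163). SGK1, which encodes a kinase close to AKT, fell by 1.38 in NCI-H2228 (adjusted p = 5.39e-05), with 4.18 ± 0.492 TPM under TRI-611 and 12.45 ± 0.279 TPM under DMSO. INSR and RICTOR also stand on the list of FOXO targets.

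Of 17 genes for proteins that hold, modify or export FOXO proteins, 3 were called higher and 5 lower in SNU2535, 5 higher and 7 lower in NCI-H3122, and 2 higher and 3 lower in NCI-H2228 (median log2 changes -0.04, -0.06 and -0.07). The shares over all tested genes were 10.7% higher and 18.1% lower, 20.6% higher and 13.4% lower, and 4.8% higher and 6.4% lower in that order. The 14-3-3 sigma gene SFN fell in each line, with log2 changes of -0.44 in SNU2535 (adjusted p = 0.000211), -0.58 in NCI-H3122 (adjusted p = 1.94e-05) and -0.42 in NCI-H2228 (adjusted p = 0.000921). The 14-3-3 gamma gene YWHAG fell by 0.54 in SNU2535 (adjusted p = 1.29e-05) and fell by 0.30 in NCI-H2228 (adjusted p = 0.00109). The deubiquitinase gene USP7 fell by 0.39 in SNU2535 (adjusted p = 0.000281). The deacetylase gene SIRT1 rose by 0.65 in NCI-H3122 (adjusted p = 0.00208) and by 0.40 in NCI-H2228 (adjusted p = 0.000803), and the acetyltransferase gene CREBBP by 0.50 in NCI-H3122 (adjusted p = 0.000102).

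Of 15 relatives of the members, 3 of 13 tested were called higher and 2 lower in SNU2535, 6 of 13 higher and 1 lower in NCI-H3122, and 1 of 12 higher and 1 lower in NCI-H2228. FOXO6, the remaining FOXO gene, averaged 4.86 ± 0.983 TPM with TRI-611 and 1.65 ± 0.0868 TPM with DMSO in NCI-H3122 (log2 change 1.13, adjusted p = 0.000742). In SNU2535 it averaged 5.69 TPM with TRI-611 and 5.67 TPM with DMSO, and in NCI-H2228 5.20 TPM with TRI-611 and 5.12 TPM with DMSO, with overlapping groups in both. ARRDC4, an arrestin-family relative of TXNIP, fell in all 3 lines, with log2 changes of -0.78 in SNU2535 (adjusted p = 0.000127), -0.73 in NCI-H3122 (adjusted p = 0.000230) and -0.64 in NCI-H2228 (adjusted p = 0.000113). ARRDC3 fell by 0.41 in SNU2535 (adjusted p = 0.000334), and ARRDC2 rose by 0.31 in NCI-H2228 (adjusted p = 0.00977). PDK2, a sister kinase gene of PDK4, rose by 0.62 in SNU2535 (adjusted p = 0.000278) and by 0.71 in NCI-H3122 (adjusted p = 0.00174).

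Whether a member responded more in one line than in another was tested by limma's interaction of line and agent, on 12 libraries at a time. FBXO32 rose less in NCI-H2228 than in either other line, and FOXO3 rose most in NCI-H3122. On the log2(TPM + 1) scale KLHL24 rose most in NCI-H3122 too, and FBXO32 rose less in SNU2535 than in NCI-H3122, but neither order held with a pseudocount of 5. PIK3IP1 rose least in NCI-H2228, and PDK4 and TXNIP rose less in NCI-H3122 than in NCI-H2228. Between SNU2535 and NCI-H3122, 5 members were called, with 20.1% of all genes tested. PDK4 is among these 5, though its SNU2535 response had to differ, as given above. Between SNU2535 and NCI-H2228, 2 members were called, with 10.6% of all genes, and between NCI-H3122 and NCI-H2228, 6 members, with 14.3%.

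In the first pair, SNU2535 minus NCI-H3122, the log2 differences in response were -0.50 ± 0.0924 (SE, limma adjusted p = 0.00232) for KLHL24, -0.32 ± 0.0660 (adjusted p = 0.00434) for FOXO3 and -0.29 ± 0.0840 (adjusted p = 0.0276) for FBXO32. CCNG2 and PDK4 went the other way, at 0.27 ± 0.0722 (adjusted p = 0.0211) and 0.72 ± 0.233. The PDK4 value takes in its SNU2535 response, which passed the filter through TRI-611 libraries alone and so had to differ. The PDK4 value is therefore a description, and its p is left out. The median over all genes was -0.09 here and moved by 0.12 under median-ratio scaling; relative to it the differences were -0.41 for KLHL24, -0.23 for FOXO3, -0.20 for FBXO32, 0.36 for CCNG2 and 0.81 for PDK4. The KLHL24 value rests on a DMSO level near 1 TPM in NCI-H3122, and it was -0.96 with a pseudocount of 0.1, 0.15 (adjusted p = 0.133) with a pseudocount of 5 and -0.25 (adjusted p = 0.1001) under quantile normalization. PIK3IP1, at -0.31 (adjusted p = 0.0857), was not called, but it was called at -0.95 with a pseudocount of 0.1 (adjusted p = 0.000588) and in the opposite direction, at 0.48, with a pseudocount of 5 (adjusted p = 0.00194). It was also called without mitochondrially encoded genes (adjusted p = 0.0455), and TXNIP was called under median-ratio scaling (0.27, adjusted p = 0.0205). The FBXO32 difference vanished with a pseudocount of 5, at -0.00496 (adjusted p = 0.972), and was -0.0822 (0.498) under quantile normalization and -0.17 (0.174) under median-ratio scaling. Its call was also lost with no filter (0.0805), and without SNU2535 DMSO library 1 (0.0610) or TRI-611 library 3 (0.0668) or NCI-H3122 DMSO library 2 (0.0667) or 3 (0.0666) or TRI-611 library 2 (0.0657). The CCNG2 call was lost with no filter (0.0553) and without NCI-H3122 DMSO library 3 (0.0505). PDK4 did not pass the threshold with the batch number as a block, a pseudocount of 5, no filter or quantile normalization. Nor did PDK4 pass it without any 1 of the 9 libraries whose removal left it testable.

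Between SNU2535 and NCI-H2228 the difference in response was 0.86 ± 0.122 for PIK3IP1 (log2, SE, limma adjusted p = 0.000644) and 0.50 ± 0.0660 for FBXO32 (adjusted p = 0.000381), both larger in SNU2535. The size for PIK3IP1 depended on the pseudocount, at 0.56 (adjusted p = 0.0317) with 0.1 and 1.13 (3.61e-06) with 5. The other 8 members gave differences between -0.21 and 0.30, of which CCNG2 was called with a pseudocount of 5, at 0.29 (adjusted p = 0.0242) against -0.0675 with a pseudocount of 1. For FOXO1 and FOXO3 the 95% intervals were -0.26 to 0.20 and -0.14 to 0.15. Since the value for KLHL24, 0.30 (95% interval 0.06 to 0.55), did not pass the adjustment (adjusted p = 0.115), no difference is claimed for it.

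Between NCI-H3122 and NCI-H2228 the difference was 1.17 ± 0.156 for PIK3IP1 (log2, SE, limma adjusted p = 0.000271), 0.80 ± 0.110 for KLHL24 (adjusted p = 0.000329), 0.79 ± 0.0901 for FBXO32 (adjusted p = 7.61e-05) and 0.33 ± 0.0603 for FOXO3 (adjusted p = 0.00285). It was -0.70 ± 0.207 for PDK4 (adjusted p = 0.0389) and -0.29 ± 0.0761 for TXNIP (adjusted p = 0.0214). The PDK4 value is to be read as a description, since PDK4 passed the filter in both lines with the help of its TRI-611 libraries. The KLHL24 difference shrank to 0.06 (adjusted p = 0.698) with a pseudocount of 5. The PIK3IP1 difference was 1.51 (adjusted p = 0.000652) with a pseudocount of 0.1 and 0.64 (7.77e-05) with 5. PDK4 lost its call with the batch number as a block (adjusted p = 0.0522), a pseudocount of 0.1 (0.0700), quantile normalization (0.0521) and without NCI-H3122 DMSO library 1 or 2 or TRI-611 library 1 or 3, or NCI-H2228 DMSO or TRI-611 library 1 or 2 (0.0570 to 0.0985). TXNIP lost it with no filter (0.0752), with plain empirical Bayes (0.0534) and without NCI-H3122 DMSO library 1 (0.0504) or NCI-H2228 DMSO library 3 (0.05002). CCNG2, at -0.33 (adjusted p = 0.0530), passed it without NCI-H3122 TRI-611 library 2 (0.0393) or NCI-H2228 DMSO library 1 (0.0212) or TRI-611 library 2 (0.0301). CCNG2 also passed it with a pseudocount of 0.1 (-0.50, adjusted p = 0.0123), under median-ratio scaling (0.0243) and quantile normalization (0.0448) and without mitochondrially encoded genes (0.0265), but was at 0.0450 (0.771) with a pseudocount of 5. BCL6, at -0.23 (adjusted p = 0.0987), passed it under median-ratio scaling (0.0224) and quantile normalization (0.0154) and without NCI-H2228 DMSO library 3 (0.0317).

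**Figure D5:**
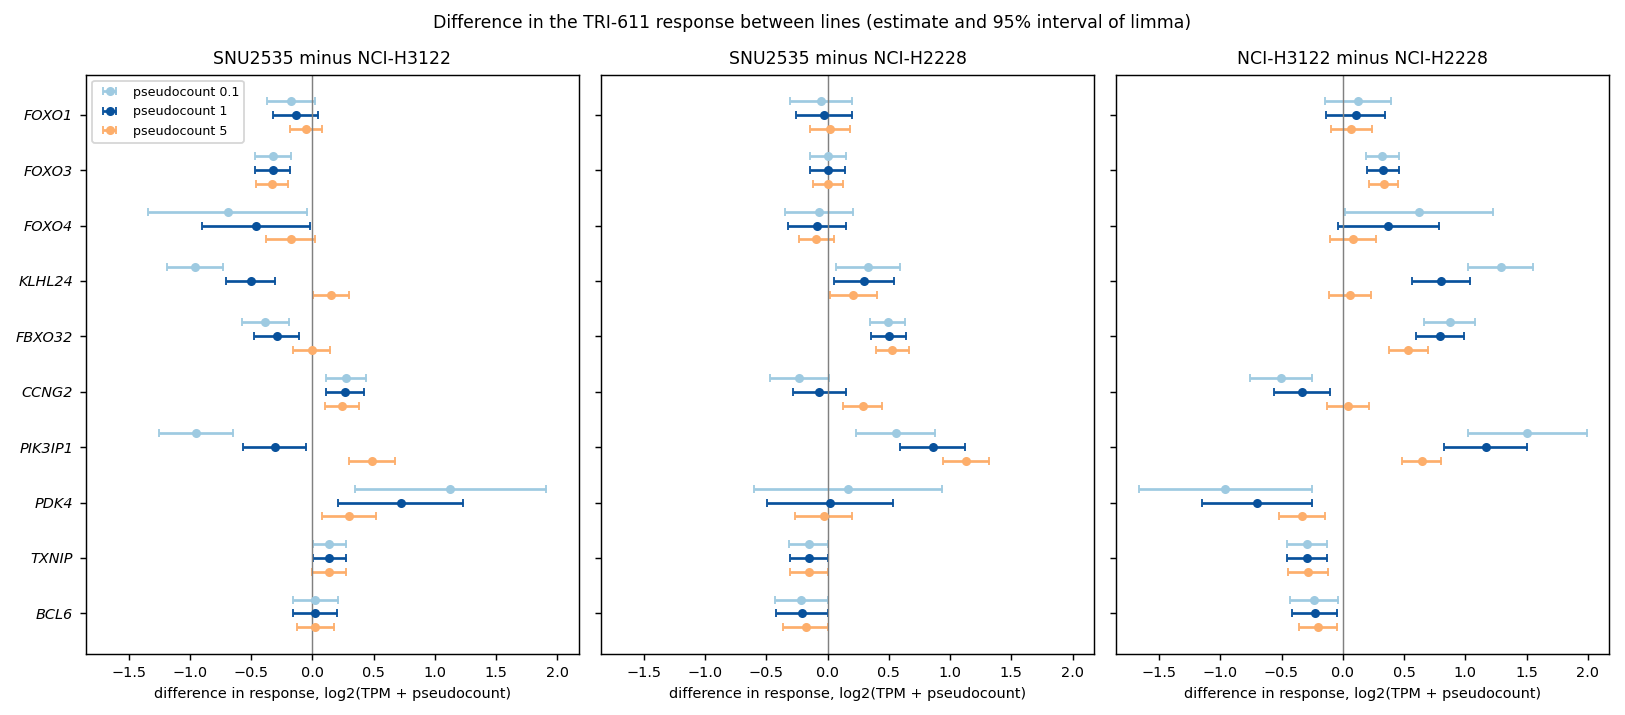
Difference in log2 response to TRI-611 between lines for the 10 members (points with limma's 95% interval, 1 panel per pair, first-named line minus the second, with pseudocounts of 0.1, 1 and 5 in 3 colours; 0 marks equal response). With a pseudocount of 1, PIK3IP1 lies at 0.86 and 1.17 in the 2 pairs with NCI-H2228, and PDK4 lies at 0.72 and -0.70 in the 2 pairs with NCI-H3122.

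Levels without the agent were compared over the 9 DMSO libraries. Every member was called between at least 1 pair of lines, as most genes were, though PDK4 only in a comparison that is a description (below). With PDK4, 9 members were called between SNU2535 and NCI-H3122, with 76.1% of all genes. Between SNU2535 and NCI-H2228 it was 7, with 75% of all genes, and between NCI-H3122 and NCI-H2228 it was 8, with 79.3% of all genes. These shares leave little to read from the counts. The median log2 difference over all genes was 0.16 for SNU2535 over NCI-H3122, -0.11 for SNU2535 over NCI-H2228 and -0.25 for NCI-H3122 over NCI-H2228, and median-ratio scaling moved it by -0.15, 0.08 and 0.24; log2 differences below are as deposited, with the value relative to that median beside some of the smaller ones.

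Of the FOXO genes, FOXO1 was highest in SNU2535 (DMSO mean 11.1 ± 0.604 TPM), then NCI-H2228 (6.63 ± 0.440 TPM) and NCI-H3122 (6.10 ± 0.296 TPM; SD, n = 3 each). The log2 difference was 0.76 for SNU2535 over NCI-H3122 and 0.66 for SNU2535 over NCI-H2228 (limma adjusted p = 4.02e-06 and 1.24e-05). The other 2 lines did not differ past the threshold at -0.10 (95% interval -0.26 to 0.05), a value that was 0.15 relative to the median and was 0.16 (adjusted p = 0.0312) under median-ratio scaling and 0.38 (0.000209) under quantile normalization. FOXO3 was highest in NCI-H3122 (59.8 ± 2.52 TPM), ahead of SNU2535 (24.0 ± 0.522 TPM) and NCI-H2228 (22.5 ± 0.628 TPM). The log2 difference was -1.28 for SNU2535 over NCI-H3122 and 1.37 for NCI-H3122 over NCI-H2228 (adjusted p = 3.01e-09 and 1.43e-09), while SNU2535 and NCI-H2228 differed by 0.09 (adjusted p = 0.0757), or 0.20 relative to the median, and by 0.19 (0.000904) under median-ratio scaling and 0.18 (0.00135) under quantile normalization. FOXO4 took the opposite order, with 6.10 ± 0.0997 TPM in NCI-H2228, 3.68 ± 0.149 TPM in SNU2535 and 1.74 ± 0.590 TPM in NCI-H3122, each step past the threshold (0.80 for SNU2535 over NCI-H3122, -0.60 for SNU2535 over NCI-H2228 and -1.40 for NCI-H3122 over NCI-H2228).

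Of the targets, FBXO32 had 65.0 ± 1.52 TPM in SNU2535, 30.8 ± 1.43 TPM in NCI-H2228 and 8.61 ± 0.827 TPM in NCI-H3122, with log2 differences of 2.78 for SNU2535 over NCI-H3122, 1.05 for SNU2535 over NCI-H2228 and -1.73 for NCI-H3122 over NCI-H2228. PIK3IP1 was high in SNU2535 alone, with 13.6 ± 1.23 TPM against 1.38 ± 0.176 TPM in NCI-H2228 and 0.993 ± 0.105 TPM in NCI-H3122 (2.62 for SNU2535 over NCI-H2228 and 2.87 for SNU2535 over NCI-H3122). NCI-H3122 and NCI-H2228 differed by -0.26 in PIK3IP1 (adjusted p = 0.0328), or -0.01 relative to the median; the call was lost with the batch number as a block (0.0555), a pseudocount of 5 (0.141), no filter (0.0503), under median-ratio scaling (0.405) and quantile normalization (0.12, 0.289), and without NCI-H3122 DMSO library 1 (0.102) or 3 (0.0562) or NCI-H2228 DMSO library 2 (0.107) or 3 (0.0725). CCNG2 did not differ past the threshold between SNU2535 and NCI-H3122, at 22.4 ± 1.07 and 24.0 ± 0.537 TPM (log2 difference -0.10, 95% interval -0.25 to 0.06), and was low in NCI-H2228 at 3.81 ± 0.411 TPM (2.28 for SNU2535 over NCI-H2228 and 2.38 for NCI-H3122 over NCI-H2228). The SNU2535 and NCI-H3122 difference in CCNG2 was -0.29 (adjusted p = 0.00232) under median-ratio scaling and -0.32 (0.00214) under quantile normalization.

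KLHL24 stood at 10.5 ± 1.33 TPM in NCI-H2228, 8.11 ± 0.518 TPM in SNU2535 and 1.43 ± 0.0535 TPM in NCI-H3122 under DMSO. The log2 difference was 1.91 for SNU2535 over NCI-H3122, -2.23 for NCI-H3122 over NCI-H2228 and -0.33 for SNU2535 over NCI-H2228 (adjusted p = 0.00853, and 0.0583 under quantile normalization). TXNIP was highest in NCI-H3122, at 515 ± 16.3 TPM, while NCI-H2228 (241 ± 8.87 TPM) and SNU2535 (238 ± 1.57 TPM) did not differ past the threshold (log2 difference -0.02 for SNU2535 over NCI-H2228, 95% interval -0.09 to 0.06, or 0.0935 relative to the median). BCL6 ran in the order SNU2535 (28.4 ± 0.345 TPM), NCI-H2228 (24.2 ± 1.90 TPM) and NCI-H3122 (14.1 ± 0.0713 TPM), with log2 differences of 0.96 for SNU2535 over NCI-H3122, 0.22 for SNU2535 over NCI-H2228 and -0.74 for NCI-H3122 over NCI-H2228, all called. PDK4 was near 1 TPM throughout, with means of 1.06 ± 0.134, 0.976 ± 0.140 and 0.701 ± 0.0477 TPM in NCI-H3122, NCI-H2228 and SNU2535. It passed the filter here through 2 NCI-H3122 libraries and 1 NCI-H2228 library, with 0 SNU2535 libraries at 1 TPM. Its differences of -0.27 for SNU2535 over NCI-H3122 and -0.21 for SNU2535 over NCI-H2228 are therefore descriptions, and their p is left out. The first passed the threshold, but not with the batch number as a block, a pseudocount of 5 or no filter. Nor did it pass without any SNU2535 DMSO library or NCI-H3122 DMSO library 3. The second passed only with plain empirical Bayes. NCI-H3122 over NCI-H2228, at 0.0605 (adjusted p = 0.621), was not called, but was 0.42 (adjusted p = 0.00431) under quantile normalization.

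The spread between lines, as the highest line mean over the lowest, was compared under the 2 conditions as a description. For KLHL24 it was 2.83 with TRI-611 and 7.33 with DMSO, for FOXO4 2.32 with TRI-611 and 3.51 with DMSO, and for FBXO32 5.76 with TRI-611 and 7.55 with DMSO. For PIK3IP1 it was 14.0 with TRI-611 and 13.7 with DMSO, and for FOXO3 it was 3.33 with TRI-611 and 2.66 with DMSO. The spreads with TRI-611 and with DMSO were 1.60 and 1.81 for FOXO1, 4.94 and 6.29 for CCNG2 and 1.84 and 1.51 for PDK4. They were 1.96 and 2.16 for TXNIP and 2.05 and 2.02 for BCL6. With TRI-611, KLHL24, FOXO3, BCL6 and PDK4 libraries of SNU2535 and NCI-H2228 overlapped, as did PDK4 libraries of SNU2535 and NCI-H3122. FOXO1 libraries of NCI-H3122 and NCI-H2228 overlapped with TRI-611 and with DMSO alike.

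For each member called in all 3 lines other than FOXO3, the genes with the most similar pattern were found by the root mean square distance between log2(TPM + 1) values centred on their line mean, over the 18 libraries and 13176 genes that passed the filter in all lines. For KLHL24 these were BMF (distance 0.224), CASTOR2 (0.250) and TCP11L2 (0.274). For FBXO32 they were HBP1 (0.0795), TCP11L2 (0.0850) and PNRC1 (0.113), and the same genes came up for PIK3IP1 at larger distances (PNRC1 0.165, HBP1 0.175 and TCP11L2 0.177). GRB7 (0.150), CREBRF (0.158) and ZFYVE1 (0.182) lay nearest to CCNG2, and NR4A2 (0.180), PIM1 (0.197) and GRB7 (0.206) nearest to PDK4. For FOXO1 the nearest was TNRC6B (0.0700), for FOXO4 INPP5B (0.107) and for TXNIP KCNK1 (0.0514); genes of small change have many near neighbours, so distances are not comparable between members.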

How the data were processed

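Poly-A RNA of 18 libraries was sequenced, 3 per group of line and treatment. The authors deposited 1 table of TPM values for 57500 genes, and no read totals. Per the submitters' processing notes, the tools were DESeq2, featureCounts, Subread 1.5.2, STAR 2.5.2b and fastp 0.23.1, on genome build GRCh38. Not given in the sources used here are strand setting, annotation, use of the kit's molecular identifiers and derivation of TPM. GENCODE release 29 and RefSeq (GRCh38.p14) supplied coordinates and promoter windows.

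TPM was taken as deposited and analysed as log2(TPM + 1), a scale that shrinks changes of genes near or under 1 TPM. Genes with 1 TPM or more in at least 3 libraries of a comparison were tested in R 4.3.3 by limma 3.58.1 (moderated by empirical Bayes, trend and robust options on, two-sided, Benjamini-Hochberg adjustment over all tested genes, called at an adjusted p under 0.05). Each line was fitted alone; differences in response were interaction contrasts on 12 libraries, and DMSO levels were contrasts on the 9 DMSO libraries. The steps were tested on simulated data. The genes nearest in pattern to FOXO3 are not reported here. The members, the gene lists and the rule for the other genes named (up to 3 called genes per list and line, largest change first, with groups that do not overlap) were chosen with earlier results of these data known. Alternatives were pseudocounts of 0.1 and 5, no filter, the replicate block, median-ratio scaling, quantile normalization, TPM without mitochondrially encoded genes, plain empirical Bayes, a fit of all 18 libraries and leaving out each library.

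The labels' batch, numbered 1 to 3, equals the replicate number in every group and so pairs the samples. Deviations from the group means in the same batch correlated across genes in SNU2535 at -0.0228, 0.0437 and 0.00966 (batches 1, 2 and 3), in NCI-H3122 at -0.0865, -0.0290 and 0.0152, and in NCI-H2228 at 0.101, 0.00343 and 0.0830. With a single library per group in each batch, nothing could be tested within a batch.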

Additional observations from a re-analysis of the deposited data

Results flagged for a closer look

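The members' responses to TRI-611 that differed between lines by limma's interaction test are gathered here as log2 differences with their adjusted p. For SNU2535 minus NCI-H3122 they were -0.32 for FOXO3 (0.00434), -0.50 for KLHL24 (0.00232), -0.29 for FBXO32 (0.0276), 0.27 for CCNG2 (0.0211) and 0.72 for PDK4. The p of this PDK4 value is left out, since PDK4 passed the filter in SNU2535 through its TRI-611 libraries alone. For SNU2535 minus NCI-H2228 they were 0.50 for FBXO32 (0.000381) and 0.86 for PIK3IP1 (0.000644). For NCI-H3122 minus NCI-H2228 they were 0.33 for FOXO3 (0.00285), 0.80 for KLHL24 (0.000329), 0.79 for FBXO32 (7.61e-05), 1.17 for PIK3IP1 (0.000271), -0.70 for PDK4 (0.0389) and -0.29 for TXNIP (0.0214). This PDK4 value too is to be read as a description, as given above. The response was in the same direction in both lines of each pair, so these are differences in size on the log2(TPM + 1) scale.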

How the results depend on the processing

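Of 1455 values of members under the alternatives, 1323 kept their direction and their side of the threshold, 76 lost a call, 25 gained one and 31 changed sign. The genes called in NCI-H2228 numbered 1882, against 1052 with no filter, 1177 with plain empirical Bayes and 1152 to 1759 when 1 library was left out. Members called for SNU2535 minus NCI-H3122 numbered 5 (with PDK4, whose value is a description), against 3 with a pseudocount of 5, 2 with no filter, 2 after quantile normalization and 2 to 4 when 1 library was left out. With a pseudocount of 5 the differences in response for SNU2535 minus NCI-H3122 became 0.15 for KLHL24 and 0.48 for PIK3IP1, those for SNU2535 minus NCI-H2228 became 0.0196 for FOXO1, 0.29 for CCNG2 (adjusted p = 0.0242) and -0.0313 for PDK4, and that for NCI-H3122 minus NCI-H2228 became 0.0450 for CCNG2; genes of low TPM move most with this choice by its construction. Median-ratio scaling gave -0.0480 for BCL6 in NCI-H3122, 0.0360 for FOXO1 and 0.00968 for CCNG2 (SNU2535 minus NCI-H2228), and DMSO differences of 0.0848 for TXNIP (SNU2535 over NCI-H2228) and 0.16 for FOXO1 (NCI-H3122 over NCI-H2228). Quantile normalization gave -0.0431 for BCL6 in NCI-H3122, 0.0678 for FOXO1 (SNU2535 minus NCI-H3122), 0.0408 for FOXO1 and 0.0012 for CCNG2 (SNU2535 minus NCI-H2228), and DMSO differences of 0.38 for FOXO1 and 0.12 for PIK3IP1 (NCI-H3122 over NCI-H2228). Without mitochondrially encoded genes FOXO3 was at -0.0187 for SNU2535 minus NCI-H2228. Leaving out 1 library gave BCL6 a range of -0.0272 to 0.0847 in SNU2535, -0.00826 to 0.0439 in NCI-H3122 and -0.0477 to 0.0641 for SNU2535 minus NCI-H3122. For SNU2535 minus NCI-H2228 the ranges were -0.102 to 0.0280 for FOXO1, -0.0369 to 0.0357 for FOXO3 and -0.0765 to 0.0984 for PDK4, and for the TXNIP DMSO difference of SNU2535 over NCI-H2228 the range was -0.0393 to 0.0117. The cause of these shifts was not tested. The replicate block ended the calls of FOXO4 in SNU2535 (adjusted p = 0.0794), of the PDK4 response difference for NCI-H3122 minus NCI-H2228 (0.0522) and of the PIK3IP1 DMSO difference (0.0555). With it PDK4 also fell short of the threshold for the SNU2535 minus NCI-H3122 response and the DMSO difference of these lines, both descriptions. The block changed no other call of a member. PDK4 could not be tested when its low libraries left it under the filter.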
